A study of Mus musculus with 8 samples.

Results

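Insulin-like growth factor 1 (Igf1), its receptor Igf1r and the binding proteins Igfbp2 to Igfbp7 were followed across 8 arrays of mouse bone marrow stromal cells. The members were chosen by symbol: a probe set had to be annotated to one of the 8 gene symbols alone, and the brightest probe set stood for its gene. Each gene had 1 such probe set, so 8 of 19938 genes with a single-gene probe set were members. All 8 lay above the filter on dim genes, a log2 intensity of 7.14, on each of the 8 arrays and were among the 13205 genes tested.

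The cells came from femurs and tibiae of C57BL/6 mice aged 6 to 8 weeks, were expanded as adherent cultures without added cytokines, and were then kept on Skelite, a calcium phosphate scaffold. They were held in growth medium, or in an osteoinductive medium meant to direct them towards bone, and each of the 2 media was measured under 4 conditions with 1 array each. Microgravity cultures flew in automated incubation units in the KUBIK incubator, centrifuge cultures flew in the same hardware spun at 1g, ground cultures stood at normal gravity in manually operated units, and laboratory cultures were kept in culture dishes at normal gravity. The ingredients of the osteoinductive medium, the animals' sex and whether animals were pooled are not stated in the labels. The centrifuge arrays carry a gravity label that reads microgravity, and the osteoinductive centrifuge array is once described as in growth medium, so groups follow the titles. Nothing says that arrays came from separate cultures, so technical differences may enter the spread used for testing. With so few arrays, estimates are imprecise. Each medium and condition has 1 array, so no group has a spread of its own. Where condition and medium were fitted, the spread was how far the difference between media varied among conditions. Where flight was fitted, it included differences between microgravity and centrifuge arrays and between ground and laboratory arrays. Flight units were automated and ground units manual, so flight and the way the units were run cannot be told apart. Levels are log2 of the deposited intensity, and a gene was called where its limma adjusted p was below 0.05.

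IGF1 is a secreted growth factor that signals through IGF1R, a receptor tyrosine kinase, to the phosphoinositide 3-kinase and MAP kinase pathways. The IGF binding proteins hold IGF1 and IGF2 outside the cell. Binding withholds the ligand from the receptor or carries it to sites where proteases release it, and some binding proteins also attach to matrix and act without IGF. In bone, stromal cells and osteoblasts make IGF1 and most of the binding proteins, with IGFBP4 generally known as an inhibitor of IGF action and IGFBP5 as a binding protein stored in bone matrix.

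The array medians lay between 180.9 and 196.4 intensity units. Those of the flight arrays, 191.3 to 196.4, all lay above those of the ground-based arrays, 180.9 to 183.6. Of 11 measured stromal markers 10 passed the filter, and Lepr, a receptor of marrow stromal cells, lay below it on all 8 arrays; in flight 1 of the 10 rose and 4 fell, with summed intensities of 19390 to 24653 against 23094 to 26175. Many markers of other cells were higher on the 4 flight arrays than on the 4 ground-based arrays. All 11 tested neuron markers rose, as did 9 of 11 skeletal muscle, 9 of 10 endothelial, 3 of 9 lung epithelial and 1 of 4 liver markers. The filter used the mean of all 8 arrays, so a marker could be tested through its flight arrays alone. That favours rises among the tested markers. Gria2, for example, read 8.46 to 9.43 in flight and 5.58 to 5.92 on the ground-based arrays. The summed intensities cover all measured markers, tested or not. Over all tested genes 12.7% rose and 25.7% fell in flight, shares to be set beside each marker count in this paragraph. The summed intensity of the neuron list was 10249 to 15413 on flight arrays and 3203 to 4247 on ground-based arrays, that of the muscle list 5976 to 7903 and 2438 to 2550. The endothelial list summed to 2291 to 3745 in flight and 1777 to 1845 otherwise, and the liver list to 2830 to 3401 and 1440 to 1493. The lung list summed to 2750 to 14891 and 1726 to 1925. The endothelial and lung sums were highest on the osteoinductive microgravity array. On the other flight arrays the endothelial sum was 2291 to 2446. The liver sum was set mainly by 1 gene, Ttr, at 10.37 to 10.90 in flight and 6.84 to 7.32 otherwise, and the other tested liver markers did not pass. Of 12 measured macrophage markers 8 passed the filter, and 1 of these rose and 1 fell. Their summed intensities over the 12 measured were 2030 to 2791 and 1887 to 2151. The highest was on the osteoinductive microgravity array, where Lyz2 read 9.72 against 7.43 to 7.80 elsewhere. Adgre1 and Itgam lay below the filter on all arrays, while Cd68 ran from 7.77 to 8.44 and Csf1r from 7.77 to 8.25. Below the filter on every array were also the muscle regulator Myog, the lung gene Foxj1 and, in the liver list, Afp, Apob and Ambp. The flight results below move together with the marker lists that rose, and the part of such cells in them was not tested. In bulk RNA, fewer cells of a type and less RNA per cell cannot be told apart.

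The members fell into a group that was higher in flight (Igf1, Igfbp2, Igfbp3 and Igfbp5) and a group that was higher in osteoinductive medium (Igf1r, Igfbp4, Igfbp5, Igfbp6 and Igfbp7), with Igfbp5 in both. The promoter windows of 5 members on which this pattern turns, 250 bases before to 50 bases after the RefSeq transcription start (build GRCm38.p6), are shown first, so that members that moved together can be compared at their start sites. Capitals mark matches, on either strand, to the TATA box TATAAA, the GC box GGGCGG, the CCAAT box CCAAT, the cAMP response element TGACGTCA and the steroid receptor hexamer AGAACA.
Igfbp5, chr1:72874816-72875115, minus strand: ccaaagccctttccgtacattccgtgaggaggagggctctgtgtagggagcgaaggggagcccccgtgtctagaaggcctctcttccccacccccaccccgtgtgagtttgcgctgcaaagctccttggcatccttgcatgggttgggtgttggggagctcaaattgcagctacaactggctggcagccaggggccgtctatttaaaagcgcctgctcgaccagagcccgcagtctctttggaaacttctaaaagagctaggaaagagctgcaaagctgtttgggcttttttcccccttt
Igfbp2, chr1:72824230-72824529, plus strand: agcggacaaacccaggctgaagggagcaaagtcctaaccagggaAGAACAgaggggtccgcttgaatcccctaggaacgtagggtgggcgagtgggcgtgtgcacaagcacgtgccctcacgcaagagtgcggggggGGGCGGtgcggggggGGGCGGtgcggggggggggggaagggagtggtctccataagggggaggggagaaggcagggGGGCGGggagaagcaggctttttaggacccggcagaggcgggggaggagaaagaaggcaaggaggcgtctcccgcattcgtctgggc
Igfbp3, chr11:7213874-7214173, minus strand: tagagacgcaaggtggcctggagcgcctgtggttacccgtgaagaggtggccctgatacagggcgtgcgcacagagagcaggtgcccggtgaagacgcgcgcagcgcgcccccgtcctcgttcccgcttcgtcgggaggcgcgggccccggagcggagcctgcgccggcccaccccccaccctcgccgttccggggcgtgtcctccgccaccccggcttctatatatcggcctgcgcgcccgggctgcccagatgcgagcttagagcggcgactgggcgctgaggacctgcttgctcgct
Igf1r, chr7:67952007-67952306, plus strand: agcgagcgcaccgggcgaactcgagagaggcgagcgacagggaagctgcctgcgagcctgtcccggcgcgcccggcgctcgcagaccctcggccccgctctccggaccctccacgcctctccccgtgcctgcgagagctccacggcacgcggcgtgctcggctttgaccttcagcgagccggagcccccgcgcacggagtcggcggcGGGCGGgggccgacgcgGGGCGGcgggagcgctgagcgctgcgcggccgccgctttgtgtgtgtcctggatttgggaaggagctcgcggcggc
Igfbp4, chr11:99040994-99041293, plus strand: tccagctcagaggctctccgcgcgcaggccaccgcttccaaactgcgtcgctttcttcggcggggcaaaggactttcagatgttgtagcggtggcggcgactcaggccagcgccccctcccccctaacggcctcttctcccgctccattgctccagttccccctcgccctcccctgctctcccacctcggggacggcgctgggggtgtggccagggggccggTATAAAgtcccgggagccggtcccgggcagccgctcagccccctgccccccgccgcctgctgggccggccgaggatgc

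No matches overlapped in these windows. The printed windows of Igfbp2 and Igfbp3 shared none of the listed matches: that of Igfbp2 held 3 GC boxes and 1 steroid receptor hexamer, and that of Igfbp3 held none. RefSeq has a second start for Igfbp2, not printed, whose window (chr1:72825137-72825436, plus strand) held none of the listed matches and was 57.3% G and C. The window of Igfbp5 held none of these letters either, which says nothing about the factors that act there. Igf1r had 2 GC boxes, starting 43 and 26 bases before the start, and Igfbp4 had 1 TATA box starting 28 bases before it. Of the members not printed, the window of Igfbp7 held 4 GC boxes, that of Igf1 held 1 CCAAT box and that of Igfbp6 held 1 TATA box and 2 CCAAT boxes. A match is a description and not a site of binding. Among 32851 windows of that length 35.7% held a GC box, 13.6% a TATA box, 37.4% a CCAAT box, 1.79% a cAMP response element and 19% a steroid receptor hexamer. The windows also differed in base composition, with 76% G and C for Igf1r, 71.7% for Igfbp3, 71.3% for Igfbp4, 67% for the printed window of Igfbp2 and 56.3% for Igfbp5, against a median of 52.7% over all windows. Igfbp2 and Igfbp5 are direct neighbours on chromosome 1, with 0 annotated genes between them in the RefSeq table of GRCm38.p6.

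Igf1, the ligand, was modestly higher in flight. In growth medium its log2 intensity (probe set 10365559) was 8.10 in microgravity, 7.98 on the centrifuge, 7.50 on the ground and 7.42 in the laboratory. In osteoinductive medium it was 8.09, 8.08, 7.59 and 7.85 in the same order. All 4 flight arrays lay above all 4 ground-based arrays, and the osteoinductive laboratory array was the highest of the latter. Flight against ground-based arrays gave a 1.39-fold higher level (log2 difference 0.47, SE 0.09, limma adjusted p = 0.00146), from a fit with medium as a covariate. Between media Igf1 differed by 0.15 (95% interval -0.05 to 0.35, adjusted p = 0.338), which did not pass.

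**Figure D1:**
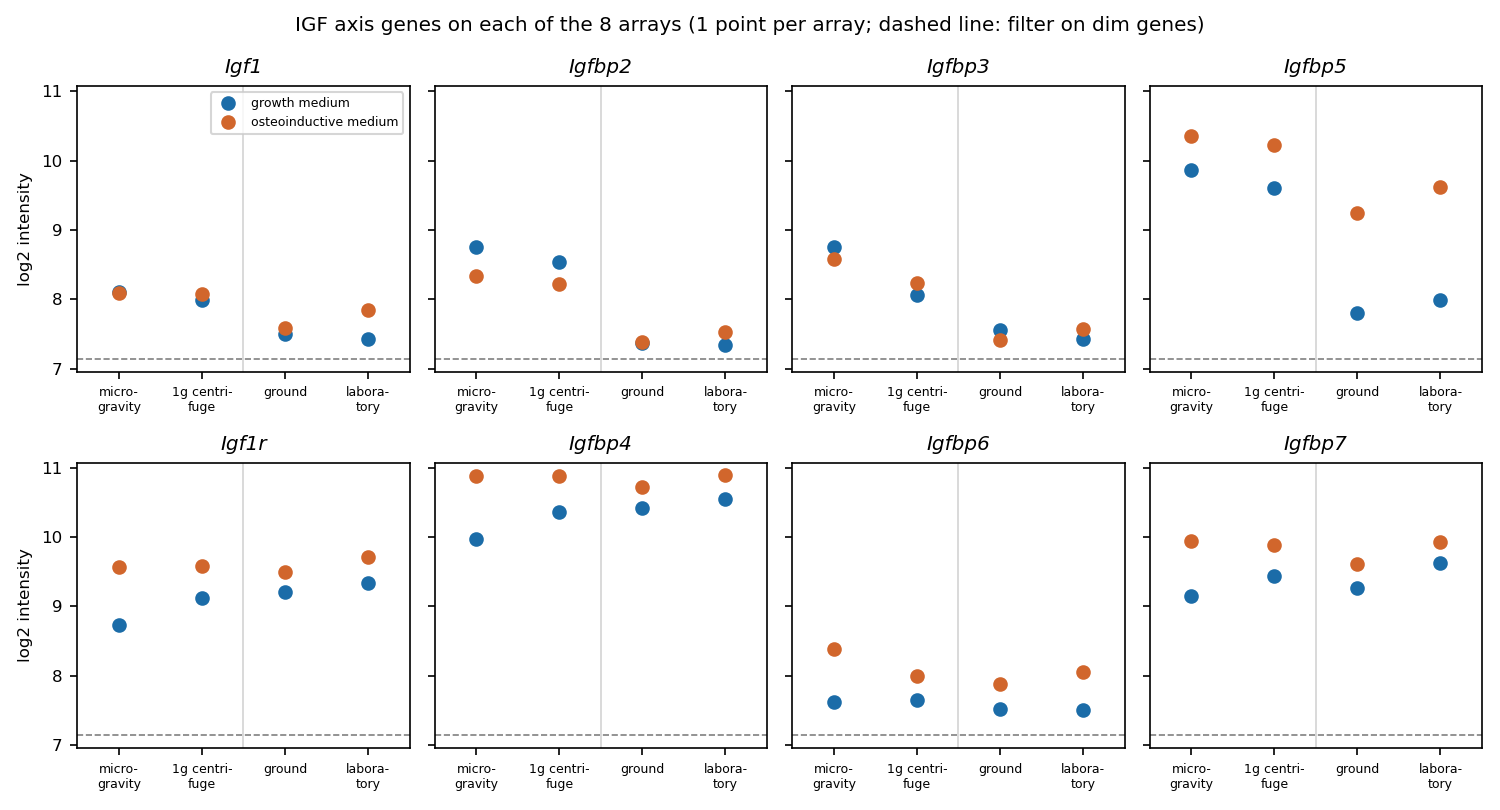
Log2 intensity (vertical axis) of the 8 genes on each array, by condition (horizontal axis) and medium (blue, growth; orange, osteoinductive), 1 point per array, with the filter at 7.14 dashed. In Igf1, Igfbp2 and Igfbp3 all flight arrays lie above all ground-based arrays, and in Igf1r, Igfbp4, Igfbp5, Igfbp6 and Igfbp7 the osteoinductive point lies above the growth point in every condition.

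The binding proteins Igfbp2 and Igfbp3 rose in flight in both media. Igfbp2 (probe set 10347277), a binding protein abundant in fetal tissues, had log2 intensities in growth medium of 8.75 in microgravity, 8.54 on the centrifuge, 7.37 on the ground and 7.35 in the laboratory. Its values in osteoinductive medium were 8.34, 8.21, 7.39 and 7.53. Every flight array exceeded every ground-based array, and the 4 ground-based arrays lay between 7.35 and 7.53. Igfbp3 (probe set 10384223), the main carrier of IGF in blood, stood at 8.76, 8.07, 7.56 and 7.43 in growth medium and at 8.58, 8.24, 7.42 and 7.57 in osteoinductive medium. Here too the groups did not overlap, and in each medium the microgravity array was the highest of the 4. On the ground-based arrays both genes lay near the median log2 intensity of all probe sets, 7.50 to 7.52, so the folds below start from a low level. On the flight arrays that median was slightly higher, at 7.58 to 7.62. Igfbp2 was 2.08-fold higher in flight (log2 difference 1.05, SE 0.10, adjusted p = 1.04e-05) and Igfbp3 1.89-fold higher (0.91, SE 0.13, adjusted p = 0.000255). Neither passed between media, with differences of -0.13 (95% interval -0.36 to 0.10) for Igfbp2 and -0.00 for Igfbp3 (-0.20 to 0.19).

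Igfbp5 had the widest range of the 8 genes, 5.86-fold from its lowest to its highest array. In growth medium its log2 intensity (probe set 10355500) was 9.87 in microgravity, 9.61 on the centrifuge, 7.80 on the ground and 7.98 in the laboratory. The osteoinductive arrays read 10.35, 10.22, 9.25 and 9.61. Both ground-based growth arrays stood apart below the other 6, while the osteoinductive laboratory array reached the level of the growth centrifuge array. Igfbp5 was thus higher both in flight, by 2.55-fold (1.35, SE 0.17, adjusted p = 9.09e-05), and in osteoinductive medium, by 2.06-fold (1.04, SE 0.16, adjusted p = 0.00125).

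In all, 4 of 8 members rose and none fell in flight minus ground-based, where 12.7% of all tested genes rose and 25.7% fell. The members' median log2 difference was 0.32, against -0.09 over all tested genes. The 4 members remained past the threshold in each refit that left out 1 array, the osteoinductive microgravity array with its lung genes included. In this fit both flight conditions, and both ground-based conditions, counted as repeats of one another. The other members did not pass: Igf1r differed by -0.19 (95% interval -0.42 to 0.04), Igfbp4 by -0.12 (-0.36 to 0.12), Igfbp6 by 0.17 (-0.04 to 0.38) and Igfbp7 by -0.00 (-0.25 to 0.24). After quantile normalization the differences of Igfbp4 and Igfbp7 were 0.0391 and 0.13. Igf1r, Igfbp4 and Igfbp7 are bright genes. Such genes as a whole lay lower on the flight arrays other than the growth centrifuge array, as described below.

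The flight difference was next taken within each medium, 2 arrays against 2, from a fit with the interaction of flight and medium. In growth medium 4 members rose (8.1% of tested genes did): Igfbp5 by 1.84 (SE 0.15, adjusted p = 4.75e-06), Igfbp2 by 1.29 (SE 0.12), Igfbp3 by 0.91 (SE 0.20, adjusted p = 0.00826) and Igf1 by 0.58 (SE 0.12, adjusted p = 0.00777). In osteoinductive medium 3 rose (7.1% of tested genes): Igfbp3 by 0.92 (SE 0.20, adjusted p = 0.00773), Igfbp5 by 0.85 (SE 0.15, adjusted p = 0.00232) and Igfbp2 by 0.82 (SE 0.12). Igf1r and Igfbp4 were below their ground-based arrays on both growth flight arrays, by -0.35 and -0.32. Neither difference passed in limma (adjusted p = 0.126 and 0.15). The differences were -0.54 and -0.51 without the growth centrifuge array, and -0.16 and -0.12 without the growth microgravity array. Bright genes as a whole were low on the growth microgravity array and, less so, on both osteoinductive flight arrays, as described below. The difference of Igf1 in osteoinductive medium was 0.36 and did not pass (adjusted p = 0.0579), and it passed with the growth microgravity or the growth centrifuge array left out. Without the growth laboratory array Igf1 and Igfbp3 did not pass in growth medium, and the difference of Igfbp3 was 0.57 without the growth microgravity array. Without the osteoinductive microgravity array, or without the osteoinductive ground array, Igfbp3 did not pass in osteoinductive medium.

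The interaction asks directly whether the flight difference depended on the medium. For Igfbp5 it was -0.99 (95% interval -1.45 to -0.53), the flight difference being larger in growth medium, but it did not pass in limma over all genes (adjusted p = 0.647). For Igfbp2 it was -0.47 (-0.84 to -0.09), for Igf1 -0.21 (-0.59 to 0.16) and for Igfbp3 0.00 (-0.60 to 0.60), each with an adjusted p = 0.999 in limma. Across all genes 0% were called in the interaction, and 525 genes, Igfbp5 and Igfbp2 among them, lay under 0.05 before adjustment.

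**Figure D2:**
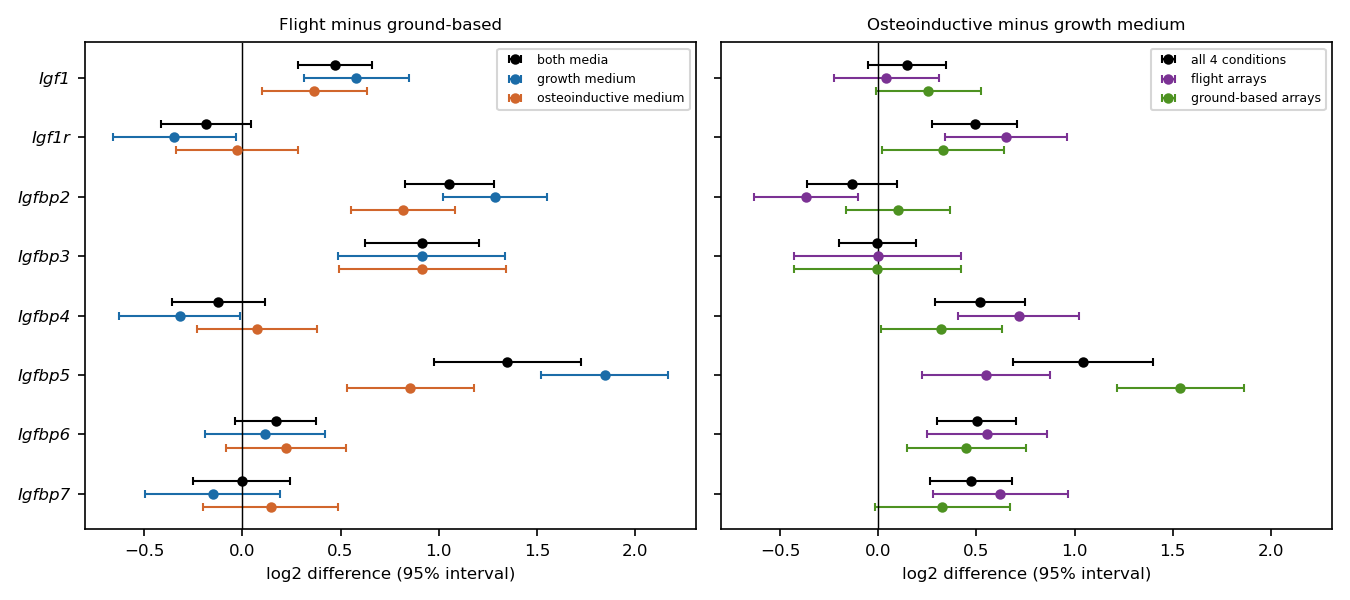
Log2 differences with 95% intervals from limma (horizontal axis) for the 8 genes (vertical axis), at left flight minus ground-based over both media and within each, at right osteoinductive minus growth over all conditions and within flight or ground-based arrays. Igfbp2, Igfbp3 and Igfbp5 lie to the right of 0 at left in both media, and Igfbp5 has the widest gap between media.

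Igf1r, the signalling receptor, was higher in osteoinductive medium. In growth medium its log2 intensity (probe set 10554094) was 8.74 in microgravity, 9.12 on the centrifuge, 9.20 on the ground and 9.34 in the laboratory, and in osteoinductive medium 9.57, 9.58, 9.49 and 9.71. The 4 osteoinductive arrays all lay above the 4 growth arrays, and the growth microgravity array was the lowest. Igfbp4 (probe set 10381096) followed the same course, at 9.97, 10.36, 10.41 and 10.55 in growth medium and 10.88, 10.88, 10.72 and 10.89 in osteoinductive medium. Again no growth array reached an osteoinductive array. Osteoinductive minus growth gave 0.49 (SE 0.10, adjusted p = 0.00602) for Igf1r and 0.52 (SE 0.10, adjusted p = 0.00609) for Igfbp4, that is 1.40-fold and 1.43-fold.

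Igfbp6, which prefers IGF2 over IGF1, and Igfbp7, a related protein with low affinity for IGF, were also higher in osteoinductive medium. Igfbp6 (probe set 10427125) read 7.63, 7.65, 7.53 and 7.51 in growth medium, in the order microgravity, centrifuge, ground and laboratory, and 8.39, 7.99, 7.88 and 8.06 in osteoinductive medium. Its 4 growth arrays lay between 7.51 and 7.65, below all osteoinductive arrays. Igfbp7 (probe set 10530841) read 9.15, 9.44, 9.27 and 9.62, and then 9.94, 9.89, 9.61 and 9.93. Its growth laboratory array and its osteoinductive ground array met, so the groups overlapped, although the osteoinductive array was higher within every condition. The differences were 0.50 for Igfbp6 (SE 0.09, adjusted p = 0.00366) and 0.47 for Igfbp7 (SE 0.10, adjusted p = 0.00616).

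Over the 4 conditions 5 of 8 members rose in osteoinductive medium and none fell, where 6.42% of all tested genes rose and 8.13% fell. The members' median was 0.48 and that of all tested genes -0.02. The same 5 members passed in each refit that left out 1 array. Bright genes as a whole were low on the growth microgravity array: over the 4688 tested genes with a mean log2 intensity above 9, the median deviation from a gene's own mean was -0.22 on that array, and 45.8% of these genes had their lowest value there. The median deviation was also negative on the osteoinductive microgravity and centrifuge arrays, at -0.12 and -0.11. It was 0.07 on the growth centrifuge array and 0.05 to 0.14 on the ground-based arrays. Igf1r, Igfbp4, Igfbp5 and Igfbp7 belong to these genes. Without the growth microgravity array the differences between media were 0.38 for Igf1r, 0.39 for Igfbp4 and 0.37 for Igfbp7. The difference of Igfbp5 was larger, at 1.23. Between media 4 of 11 neuron and 2 of 8 macrophage markers fell, and 2 of 10 stromal markers rose and 1 fell; their part in these results was not tested.

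The medium difference was also taken within flight and within ground-based arrays. In flight arrays 5 members rose in osteoinductive medium (4.07% of tested genes did): Igfbp4 by 0.71, Igf1r by 0.65, Igfbp7 by 0.62, Igfbp6 by 0.56 and Igfbp5 by 0.55. In ground-based arrays 1 member rose (1.41% of tested genes), Igfbp5 by 1.54 (SE 0.15, adjusted p = 0.000172). These within-flight calls rested on few arrays, since the count of 5 became 0 without the osteoinductive microgravity array, 1 without the osteoinductive centrifuge array, and 3 without the growth ground or the growth laboratory array. Without the osteoinductive microgravity array the value of Igfbp6 was 0.36, and Igfbp5 did not pass without the filter on dim genes (adjusted p = 0.056). Without the growth microgravity array, low for bright genes as a whole, the values were 0.52 for Igfbp4, 0.46 for Igf1r and 0.48 for Igfbp7. That of Igfbp5 was larger there, at 0.68, and was 0.42 without the growth centrifuge array. The test of the difference is the interaction, which was 0.39 for Igfbp4 (95% interval -0.04 to 0.83), 0.32 for Igf1r (-0.12 to 0.76), 0.30 for Igfbp7 (-0.19 to 0.78) and 0.11 for Igfbp6 (-0.32 to 0.54), each with an adjusted p = 0.999 in limma.

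Set against the ground units alone, each flight condition was higher for Igf1, Igfbp2, Igfbp3 and Igfbp5. The 2 comparisons share their ground arrays, so their values stand side by side and do not support each other. In microgravity minus ground, where 10.6% of tested genes rose, Igfbp5 rose by 1.58, Igfbp3 by 1.18, Igfbp2 by 1.17 and Igf1 by 0.55 (adjusted p = 0.00864). In centrifuge minus ground, where 6.34% rose, Igfbp5 rose by 1.39, Igfbp2 by 1.00, Igfbp3 by 0.66 (adjusted p = 0.00515) and Igf1 by 0.48 (adjusted p = 0.0325). Igf1 lost its call in centrifuge minus ground when any 1 of the 4 arrays of these conditions was left out, and after quantile normalization (adjusted p = 0.0609). With no term for medium Igf1 and Igfbp5 passed in neither comparison. Without the growth microgravity array, or the osteoinductive ground array, Igf1 did not pass in microgravity minus ground. Igfbp3 lost its call in centrifuge minus ground without the osteoinductive centrifuge or the osteoinductive ground array.

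Microgravity against the centrifuge, the comparison of gravity within the same hardware, gave no call for any member in limma, as for 0% of all genes (smallest adjusted p = 0.187, with 1507 genes at an unadjusted p under 0.05). Igfbp3 had the largest difference, 0.51 (95% interval 0.23 to 0.79, adjusted p = 0.271 in limma). It was 0.69 in the growth pair and 0.34 in the osteoinductive pair, with 1 array on each side. The differences of the other members ran from -0.20 for Igf1r (-0.50 to 0.11) to 0.20 for Igfbp5 (-0.31 to 0.70), so the intervals leave room for changes of either sign. In the growth pair Igf1r and Igfbp4 were lower in microgravity by -0.38 and -0.39. The bright genes as a whole, with a mean log2 intensity above 9, had median deviations from their own means of -0.22 on the growth microgravity array and 0.07 on the growth centrifuge array. In the osteoinductive pair the differences of Igf1r and Igfbp4 were -0.01 and 0.00.

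The incubation unit was compared with culture dishes by ground minus laboratory, where no member passed in limma and 0% of all genes did (smallest adjusted p = 0.441, with 269 genes at an unadjusted p under 0.05). Igfbp7 had the largest difference of the 8, -0.33 (95% interval -0.63 to -0.04, adjusted p = 1 in limma), and was lower in the ground unit in both media, by -0.35 and -0.32.

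Of the other genes of the pathway, 64 were listed, 56 were measured and 50 passed the filter. In flight 3 of the 50 rose and 12 fell, with a median of -0.16, where 12.7% of all tested genes rose and 25.7% fell, so the falls were about as frequent as over all genes. Igf2, the second ligand and an imprinted gene of fetal tissues, was the gene of this list that changed most: its log2 intensity ran from 10.35 to 10.62 on the flight arrays and from 7.84 to 8.00 on the ground-based arrays. All flight arrays lay far above all others, in both media, a 6.06-fold rise (2.60, SE 0.09, adjusted p = 1.2e-09). Igfbpl1, an IGFBP-like gene, rose by 1.14 and Pik3r1, a regulatory subunit of phosphoinositide 3-kinase, by 0.37 (adjusted p = 0.0164), the latter not passing when the growth ground or the osteoinductive ground array was left out, or with no term for medium. The signalling adaptor Shc1 fell by 0.60, the serine protease Prss23 by 0.53, the translation repressor Eif4ebp1 by 0.47 and Stc2, an inhibitor of the proteases PAPPA and PAPPA2, by 0.45. Igf2r, which removes IGF2 and sorts lysosomal enzymes, fell by 0.45 (adjusted p = 0.0147), and Grb10, an imprinted adaptor that restrains the receptor, fell by 0.45. The call of Igf2r ended after quantile normalization (adjusted p = 0.0537), and its value was -0.29 without the growth microgravity array. Shc1, Eif4ebp1, Stc2, Igf2r and Grb10 have a mean log2 intensity above 9. Such bright genes as a whole lay lower on the flight arrays other than the growth centrifuge array. The part of that shift in these falls was not tested. Igfbp1, the neighbour of Igfbp3 on chromosome 11 and a liver product, lay below the filter, with no array above 6.75.

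**Figure D3:**
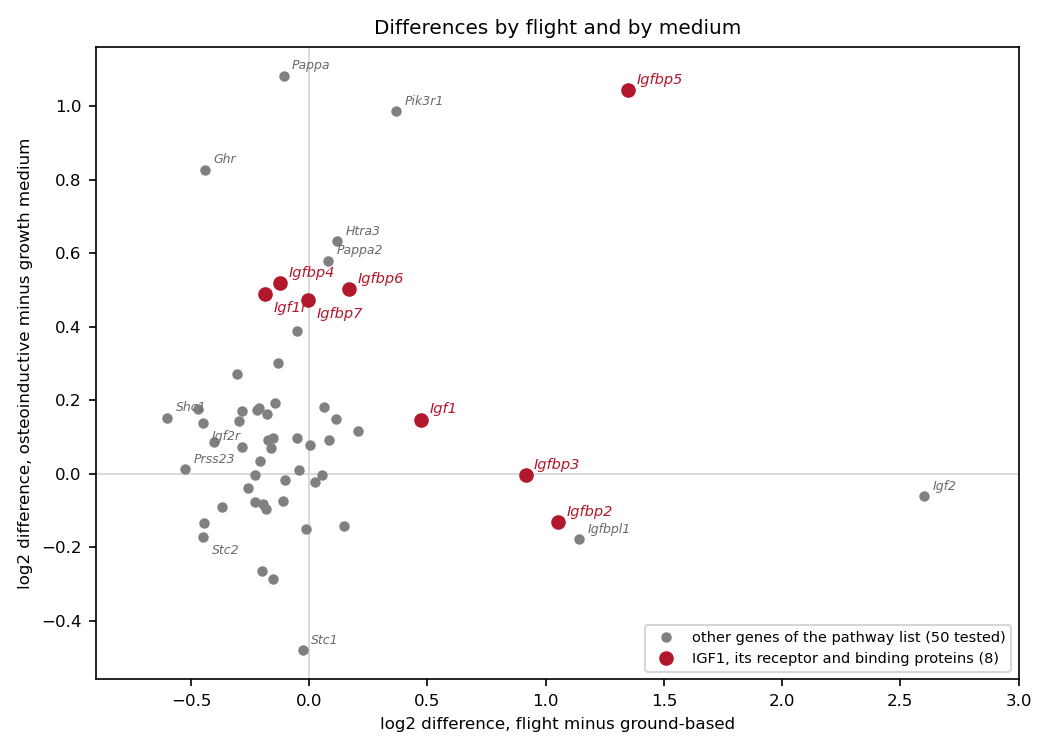
Log2 differences of the 8 genes (red) and the 50 other tested genes of the pathway list (grey), by flight (horizontal axis) and by medium (vertical axis). Igfbp5 is the red point high on both axes, Igf2 lies farthest right at 2.60, and Pappa is highest among the grey points at 1.08.

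In osteoinductive medium 6 of the 50 rose and 2 fell, with a median of 0.08, where 6.42% of all tested genes rose and 8.13% fell. Of 10 tested genes in the list of proteases that cut binding proteins and their inhibitors, 4 rose and 1 fell, to be read against the same shares over all genes. Pappa, a metalloprotease known for releasing IGF from IGFBP4, read 8.88, 9.29, 9.49 and 9.49 in growth medium, in the order microgravity, centrifuge, ground and laboratory, and 10.33, 10.60, 10.08 and 10.46 in osteoinductive medium. All osteoinductive arrays exceeded all growth arrays, by 2.12-fold on average (1.08, SE 0.12, adjusted p = 0.000122). Its relative Pappa2 rose by 0.58, the serine proteases Htra3 and Htra1 by 0.63 and 0.39, and Stc1, an inhibitor of pappalysins, fell by 0.48. Stc1 was high on the growth microgravity array, without which it fell by 0.32, and Htra1 did not pass when the growth ground or the osteoinductive ground array was left out. Ghr, the growth hormone receptor upstream of Igf1, rose by 0.83 (adjusted p = 0.00233) and Pik3r1 by 0.99 (adjusted p = 1.8e-05). The adaptor Grb14 fell by 0.28, but did not pass in any refit without 1 array or without the filter. In the interaction no gene of the list passed in limma.

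The profile of a gene over the 8 arrays, centred on its own mean, was compared with those of 12401 other named genes by the root mean square of the differences on the log2 scale, with 3 genes named for each member. The points share their arrays, and small distances between flat profiles say little. The gene nearest to Igf1r was Igfbp4, and the gene nearest to Igfbp4 was Igf1r, at 0.042, a small distance beside the members' own spread of 0.297 and 0.305 around their means. After that came Hipk1 and Slc38a10 for Igf1r (0.0542 and 0.0556) and Cd151 and Sgms1 for Igfbp4 (0.0545 and 0.0571). For Igfbp7 the nearest were Tmem38b, Arntl2 and Npepps (0.0653, 0.0667 and 0.067), and among members Igfbp4 at 0.0978.

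Igfbp2 (spread 0.548) was nearest to Clstn3, Camsap3 and Tafa2, at 0.0426, 0.0536 and 0.0571. Clstn3, a synaptic adhesion protein, and Tafa2, a secreted protein of the brain, are known from neurons. Igfbp3 (spread 0.499) had no profile as close, with Id4, Zdhhc23 and Slc25a23 at 0.111, 0.112 and 0.117. Igfbp5 (spread 0.897) stood farthest from other genes: Txnip, a thioredoxin-interacting protein that restrains glucose uptake, was nearest at 0.184, followed by the glutamate receptor subunit Gria4 at 0.243 and glutamine synthetase, Glul, at 0.321. Igf1 (spread 0.263) was nearest to Mark1, Abr and Efna2 (0.0516, 0.0533 and 0.0568). Igfbp6 (spread 0.288) was nearest to Cpt1a, which brings fatty acids into mitochondria, at 0.0649, then to Ror1 and Sik1, both at 0.0833. Within the 8 genes the chromosomal neighbours Igfbp2 and Igfbp5 lay 0.624 apart, whereas Igfbp2 and Igfbp3, on different chromosomes, lay 0.202 apart.

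**Figure D4:**
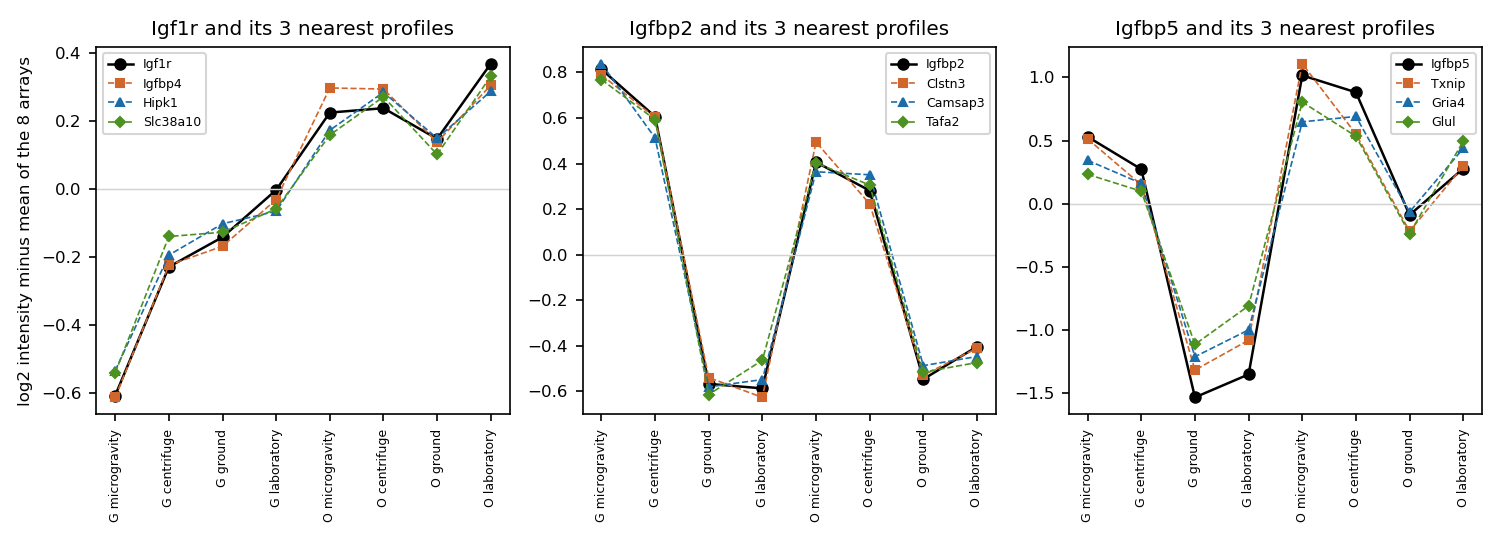
Log2 intensity minus the mean of the 8 arrays (vertical axis) for Igf1r, Igfbp2 and Igfbp5 (black) and the 3 genes nearest to each (coloured), on the 8 arrays (horizontal axis; G, growth medium; O, osteoinductive medium). Igfbp4 tracks Igf1r on every array, and Igfbp5 is lowest on the growth ground and growth laboratory arrays.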

How the data were processed

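Each array has 1 intensity on a linear scale for every probe set, as deposited by the authors. Both RMA and GCRMA appear in the submitters' processing notes, and which of them gave these values is not stated there. Log2 was taken, with no further normalization. Of 35557 probe sets 21789 were annotated to 1 gene. Genes were tested if their mean exceeded the 40th percentile of all probe sets (7.14). Differences were tested with limma 3.58.1 in R 4.3.3 (lmFit, eBayes, two-sided, Benjamini-Hochberg within a comparison over 13205 genes, threshold 0.05). Fits held condition and medium, or flight and medium, or flight, medium and their interaction, with 3, 5 and 4 residual degrees of freedom. The script was tested on simulated data. The rule for named genes was all 8 members, the genes of the pathway list that passed (up to 6 in each direction) and 3 nearest profiles per member. Members, lists and rules were chosen with earlier results of these data known. Alternatives were quantile normalization, no filter or one at the 60th percentile, 32 added before log2, averaged probe sets, no medium term, only the 4 arrays compared, and leaving out each array. Promoters are from RefSeq, GRCm38.p6, and all 8 members matched.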

Additional observations from a re-analysis of the deposited data

Results flagged for a closer look

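Igfbp2 was lower in osteoinductive than in growth medium in both flight conditions, by -0.41 in microgravity and -0.32 on the centrifuge, and higher in both ground-based conditions, by 0.02 and 0.18. Every flight pair thus went one way and every ground-based pair the other. Over both flight conditions the difference was -0.37 and did not pass (limma adjusted p = 0.0828). It was -0.47 without the growth centrifuge array and -0.26 without the growth microgravity array. The interaction was -0.47 (95% interval -0.84 to -0.09) and did not pass in limma (adjusted p = 0.999), and the ground-based differences are small. Every medium and condition holds 1 array, so no sample could be set against others of its group.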

How the results depend on the processing

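The 9 calls of members in flight minus ground-based and in osteoinductive minus growth were refitted 117 times in all and kept their direction and their call in each, with adjusted p up to 0.042, wherever the gene was tested. These refits share the same arrays. Averaging probe sets could not change the members' own values, since each has 1 probe set. Under the filter at the 60th percentile Igf1, Igfbp2, Igfbp3 and Igfbp6 were no longer tested, so the members called became 1 in flight minus ground-based, in either medium alone, in microgravity minus ground and in centrifuge minus ground. With no term for medium 2 members passed in each of the last pair. Without 1 array the count was 2 to 4 in centrifuge minus ground, 2 to 6 in flight in growth medium and 0 to 5 for the medium in flight. Quantile normalization turned the flight differences of Igfbp4 and Igfbp7 to 0.0391 and 0.13, neither passing, and the interaction of Igfbp3 was -0.00059 with 32 added.

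Differences that changed sign without 1 array had not passed. In microgravity minus centrifuge they ran from -0.0435 to 0.17 for Igf1, -0.42 to 0.0325 for Igf1r, -0.0175 to 0.35 for Igfbp2, -0.45 to 0.0689 for Igfbp4, -0.18 to 0.57 for Igfbp5 and -0.33 to 0.0916 for Igfbp7. The medium difference of Igfbp3 ran from -0.0640 to 0.0544, the flight difference of Igfbp7 from -0.10 to 0.10, and the interactions of Igfbp3 and Igfbp6 from -0.34 to 0.35 and from -0.0920 to 0.31.

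Counts over all genes moved more. Without 1 array they ran from 1377 to 4695 (3789 with all) in microgravity minus ground, 643 to 2087 (1336) in centrifuge minus ground, 1115 to 1623 (1921) between media, 800 to 5733 (1833) for flight in growth medium, 861 to 4446 (2479) in osteoinductive medium, 400 to 2781 (1272) for the medium in flight, 56 to 574 (225) in ground-based arrays, 0 to 47 (0) in microgravity minus centrifuge and 0 to 15 (0) in the interaction. The first 2 became 1295 and 535 with no term for medium, and flight minus ground-based 3159 in place of 5068. At the 60th percentile centrifuge minus ground gave 641 and flight in growth and osteoinductive medium 863 and 1586. Quantile normalization gave 2058 for the medium in flight, and fits of only 4 arrays gave 49 in microgravity minus centrifuge and 9 in ground minus laboratory. The labels give no replicate numbers to block on, and arrays were matched through the term for medium or condition instead.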
